A study of Rattus norvegicus with 10 samples.

Results

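The nuclear genes for the subunits of oxidative phosphorylation were compared, complex by complex, between the abdominal aorta of BN (Brown Norway) rats and of LOU rats. Members were all probe sets with 1 annotated symbol that starts with Nduf, Uqcr, Cox4 to Cox8 or Atp5, or that is Sdha, Sdhb, Sdhc, Sdhd, Cyc1 or Cycs; Cox7a1 and Cox8b, which are used as markers of brown adipocytes, were left out. This gave 88 of the 15866 probe sets tested and 83 of the 10411 genes named. The genes fell into complex I (34 genes), factors that assemble complex I (5), complex II (4), complex III (8), complex IV (14) and complex V (16), and 2 belong to no complex. Another 9 probe sets carry a matching symbol among several symbols and were not used, so Cycs (cytochrome c), Cox7a2 and the c subunits of complex V other than Atp5mc3 are not named here.

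Both groups are inbred strains with 5 arrays each, recorded as 5 weeks old, untreated and kept on chow and tap water; the keeping notes give a maximum of 18 weeks. The sex is not given, the extraction notes name thoracic as well as abdominal aorta, and the labels do not say that each array is a separate rat, so p-values measure only the spread between these arrays. The study concerns the genetics of arterial and renal traits of the BN rat, and its comparison is of the strains. A whole vessel was extracted, so fewer cells of a type and less RNA per cell cannot be told apart.

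Oxidative phosphorylation is how mitochondria turn the energy of food into ATP. Complex I takes electrons from NADH and complex II takes them from succinate; both pass them through coenzyme Q to complex III, which hands them to cytochrome c, and complex IV gives them to oxygen. Complexes I, III and IV pump protons across the inner mitochondrial membrane, and complex V, the ATP synthase, lets them flow back to make ATP. A handful of subunits are encoded by mitochondrial DNA and all others by nuclear genes, whose products are imported. The arterial wall is mostly smooth muscle, while fat cells around a vessel, brown ones above all, are rich in mitochondria.

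On the deposited signal scale each array's trimmed mean was near 200.05, so the close array medians (97.4 to 105.0) follow from the scaling. All 15 measured smooth muscle markers were above background on every array, as the tissue label requires. Background (for each array, the level that 95% of its 45 bacterial control probe sets did not exceed) ran from 21.2 to 49.2, and 80 of the 83 member genes exceeded it on all 10 arrays. In BN, background fell in order from 49.2 on array 1 to 21.2 on array 5. In LOU it was lowest on array 1 (26.2) and highest on array 4 (33.3). Its part in the array levels below was not tested. Over all probe sets limma called 39 higher and 86 lower in BN at an adjusted p under 0.05. BN array 3 stood apart in Schwann cell and nerve markers (mean centred log2 level 2.69) and LOU array 1 in macrophage markers (0.98).

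The members moved together from array to array. For each array the log2 signal of every member, centred on that gene's mean over the 10 arrays, was averaged over the 83 genes. This level was 0.25, 0.57, 0.025, 0.13 and -0.26 on BN arrays 1 to 5 and 0.37, -0.17, -0.28, -0.45 and -0.18 on LOU arrays 1 to 5. BN array 2 was the highest of all, LOU array 1 the next and LOU array 4 the lowest, so the strains overlapped. The whole span was 1.02, which is a 2.03-fold range. The strain means differed by 0.29, close to the SD within each strain (0.31 in BN and 0.31 in LOU, n = 5).

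Gene by gene, 76 of the 83 members had a BN minus LOU difference above 0, where 47.6% of all named genes did. The median difference of the members was 0.31 on the log2 scale, a 1.24-fold ratio, beside -0.018 for all named genes. limma called 0 of the 83 genes, where it called 0.788% of all probe sets (0.246% higher and 0.542% lower in BN). The 7 genes below 0 were Sdhc, Ndufa4, Cox6a2, the assembly factors Ndufaf7 and Ndufaf8, Ndufa4l2 and Cox6c-ps1. At an unadjusted p under 0.05, 8 members were higher in BN (Ndufa3, Ndufa6, Ndufb2, Ndufs4, Uqcrq, Cox5a, Atp5f1e and Atp5mf) and 1 lower (Ndufa4l2), where 5.16% and 8.09% of all probe sets were. Without BN array 3 and LOU array 1 the median difference was 0.47 over all members, 0.54 for complex I, 0.41 for complex II, 0.65 for complex III, 0.47 for complex IV and 0.42 for complex V. The level of the members was highest of LOU on LOU array 1 (0.37), and on BN array 3 (0.025) it lay under the BN mean (0.14). Leaving out both thus raises the strain difference by construction. With 1 array left out in turn the median over all members was 0.21 to 0.43. The 83 genes were read on the same 10 arrays, so their shared direction is not that many separate observations.

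**Figure D1:**
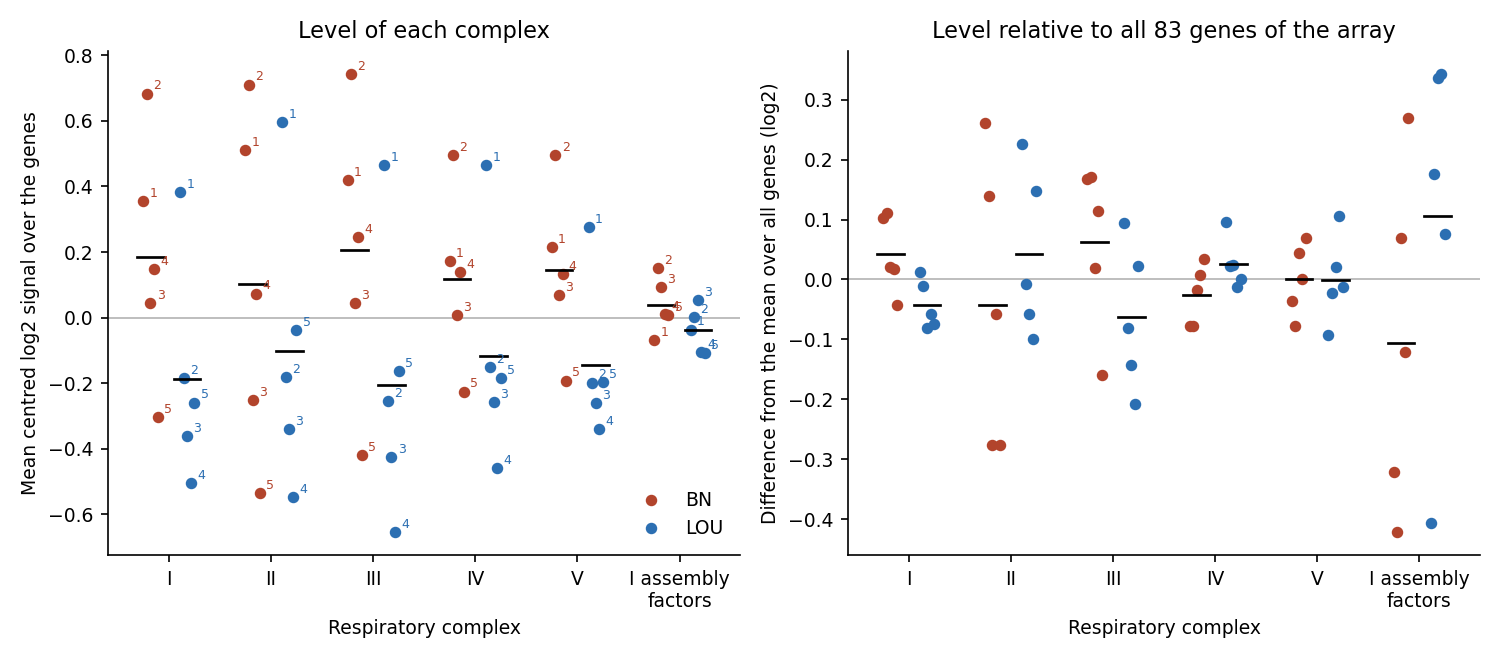
Left, the level of each complex on each array (mean over its genes of the log2 signal centred on each gene's mean, y axis), with BN arrays in red and LOU arrays in blue, small digits giving the array and black lines the strain means; BN array 2 and LOU array 1 are at or near the top for complexes I to V, and the factors that assemble complex I span a narrow range. Right, the same level after the mean over all 83 genes of the array was subtracted (log2), where both strains lie close to 0 for complexes I, IV and V.

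The same arrays were extreme for nearly every gene. BN array 2 was the highest of the BN arrays for 70 of the 83 genes (84.3%, where it was for 19.9% of all named genes), and BN array 5 was the lowest for 64 (77.1%, against 22.2%). LOU array 1 was the highest of the LOU arrays for 72 (86.7%, against 25.1%), and LOU array 4 was the lowest for 51 (61.4%, against 21.5%). Within BN, the median ratio of BN array 2 to BN array 5 was 1.82-fold over the 83 genes; within LOU, that of LOU array 1 to LOU array 4 was 1.79-fold. These pairs of arrays were picked after their values were seen, and the ratios are a description.

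Fat cell markers ran along with this pattern. Of 21 adipocyte markers 18 were measured, 17 of them above background on every array; Lep, the gene for leptin, was at background on all. Their mean centred log2 level was 0.66, 0.91, -0.37, 0.47 and -1.16 on BN arrays 1 to 5 and 0.96, 0.19, -0.77, -0.95 and 0.073 on LOU arrays 1 to 5. LOU array 1 and BN arrays 2 and 1 were the highest in these markers as well as in the members, and BN array 5, LOU array 4 and LOU array 3 the lowest in both. The summed adipocyte signal spanned 8443 to 43861 in BN and 10042 to 47753 in LOU, with a median strain difference of 0.18.

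Brown adipocyte markers (13 of 19 measured, 8 above background on every array) had a median strain difference of 0.62, with 11 of 13 above 0, and limma called 0. At an unadjusted p under 0.05, 3 were higher in BN, where 5.16% of all probe sets were. They were Cox8b (difference 2.58), Fabp3 (1.75) and Cox7a1 (1.19), the last above background on 3 arrays only. The level of the 13 markers was 1.31, 1.41, -0.14, 0.44 and -1.02 in BN and 0.35, -0.045, -1.18, -1.23 and 0.097 in LOU, arrays in order. Their summed signal spanned 2856 to 22815 in BN and 1939.6 to 12158 in LOU. Ucp1, the uncoupling protein that lets brown fat burn fuel for heat, read 9039, 12345, 4677, 4701 and 1005 in BN and 5451, 2966, 751, 485 and 3269.7 in LOU. Both strains held much of it and they overlapped, and the difference was 1.40 (standard error 0.82, limma adjusted p = 0.506). Smooth muscle markers (13 of 15 above 0, median 0.19) were highest on BN array 5, at 0.46, and lowest on LOU array 1, at -0.45. The part of these markers in the members' strain difference was not tested.

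**Figure D2:**
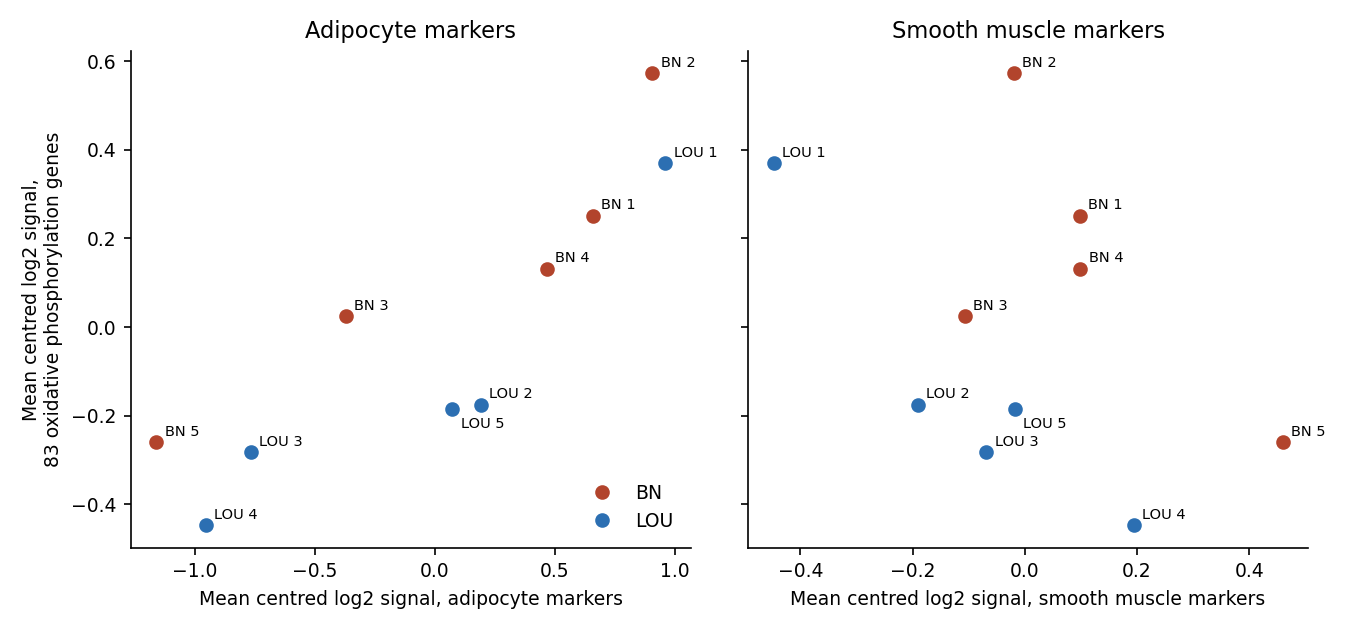
Level of the 83 oxidative phosphorylation genes on each array (mean centred log2 signal, y axis) against the level of the adipocyte markers (left, x axis) and of the smooth muscle markers (right, x axis), with 1 labelled point per array, BN in red and LOU in blue. The members are lowest on arrays low in adipocyte markers (BN 5, LOU 3 and LOU 4) and highest on arrays high in them (BN 2 and LOU 1).

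How far the strains separated turned on a few arrays. With all arrays, the signals of 2 member genes did not overlap between strains (2.41% of the 83), Cox5a above in BN and Ndufa4l2 below, where 1.41% of all probe sets lay above and 2.77% below. Without LOU array 1, 15 members lay above (where 2.47% of all probe sets did) and 1 below (4.49%), and the median difference was 0.43. Without BN array 5 these were 5 members above (2.34%) and 1 below (4.62%), and without BN array 3 and LOU array 1 together 16 above (3.52%) and 1 below (5.51%), with a median of 0.47. Leaving out the 3 arrays richest in adipocyte markers (BN arrays 1 and 2 and LOU array 1), chosen after seeing the data, gave 17 above (5.20%) and 2 below (7.85%), and a median of 0.26. No member was called by limma in any of these. LOU array 1 was the highest LOU array and BN array 5 the lowest BN array for most members. Leaving out either one therefore raised the difference of most members by construction, and fewer arrays also overlap less. With 1 array left out in turn, whichever it was, the median ran from 0.21 to 0.43.

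Promoters of the members were searched for binding motifs of factors known to drive nuclear genes of mitochondria, since the members moved together. The motifs, on both strands, were GCGCATGCG (NRF1), CCGGAAG (ETS factors, among them GABP), AAGGTCA (nuclear receptors such as ERR) and AAGATGGC (YY1). RefSeq promoters of build GRCr8, from 250 bases before to 50 after the start, matched 74 of the 83 genes. Of these 74, NRF1's motif was in 7 (9.46%, against 1.66% of 27457 promoters of the same length), the ETS motif in 21 (28.4%, against 9.22%), the nuclear receptor motif in 11 (14.9%, against 4.37%) and YY1's in 17 (23.0%, against 3.44%). At least 1 motif was in 40 (54.1%, against 17.2%), and the median GC content was 56.2% against 52.3% in all. In 12 of the 17 promoters with YY1's motif its first match began at or after the start. A match describes these letters only, and binding was not measured.

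A gene of each complex is printed here from 170 bases before to 30 after its start, 5′ to 3′ on its own strand, with every motif match in capitals on either strand, and Ndufa4, whose strain difference ran against the others, is printed beside them.
Ndufa3 (complex I, chr1:74515529-74515728, minus strand): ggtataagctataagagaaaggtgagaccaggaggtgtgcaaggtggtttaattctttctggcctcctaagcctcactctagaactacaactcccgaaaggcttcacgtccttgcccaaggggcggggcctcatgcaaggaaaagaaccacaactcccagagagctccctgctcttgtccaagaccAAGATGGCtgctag
Sdhb (complex II, chr5:158547764-158547963, plus strand): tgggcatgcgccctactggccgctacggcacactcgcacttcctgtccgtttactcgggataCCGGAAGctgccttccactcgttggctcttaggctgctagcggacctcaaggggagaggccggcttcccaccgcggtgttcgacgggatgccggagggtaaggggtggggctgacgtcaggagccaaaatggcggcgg
Uqcrc1 (complex III, chr8:118468053-118468252, plus strand): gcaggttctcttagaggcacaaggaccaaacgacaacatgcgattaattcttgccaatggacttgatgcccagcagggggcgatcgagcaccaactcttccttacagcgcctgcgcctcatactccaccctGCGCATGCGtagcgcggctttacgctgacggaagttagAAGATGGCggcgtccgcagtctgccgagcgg
Cox4i1 (complex IV, chr19:65630213-65630412, plus strand): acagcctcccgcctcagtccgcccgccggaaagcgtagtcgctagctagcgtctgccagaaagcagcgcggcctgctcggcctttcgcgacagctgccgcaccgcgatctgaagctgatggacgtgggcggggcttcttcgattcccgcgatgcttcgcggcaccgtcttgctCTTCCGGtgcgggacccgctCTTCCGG
Atp5f1a (complex V, chr18:73567367-73567566, plus strand): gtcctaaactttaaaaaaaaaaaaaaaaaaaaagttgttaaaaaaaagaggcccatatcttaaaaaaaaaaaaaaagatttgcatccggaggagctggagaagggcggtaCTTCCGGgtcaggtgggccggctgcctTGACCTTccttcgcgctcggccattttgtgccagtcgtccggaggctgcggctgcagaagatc
Ndufa4 (complex IV, chr4:40975530-40975729, minus strand): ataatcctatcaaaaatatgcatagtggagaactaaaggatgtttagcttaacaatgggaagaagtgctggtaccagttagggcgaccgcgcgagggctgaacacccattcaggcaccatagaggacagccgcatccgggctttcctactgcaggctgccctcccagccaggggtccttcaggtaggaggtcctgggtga

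Ndufa3 holds YY1's motif just after its start, Sdhb an ETS motif upstream, and Uqcrc1 both NRF1's motif and YY1's. Cox4i1 holds the ETS motif as its reverse complement in a pair of places, and Atp5f1a holds an ETS and a nuclear receptor motif, both as reverse complements. None of the motifs is in the window of Ndufa4. That is not particular to it, since only 40 of the 74 member promoters held a motif. Ndufab1, Cox6b1 and Atp5f1b, with differences of 0.71, 0.59 and 0.52, hold none either. The genes printed were picked without a fixed rule, and a link between motifs and the strain difference was not tested.

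Complex I, the largest of the complexes, had all 34 genes above 0, from 0.10 to 0.84 with a median of 0.33. Of them 4 were higher at an unadjusted p under 0.05, where 5.16% of all probe sets were. Ndufa3, a small accessory subunit, had the largest difference of all members. It read 1453, 1902, 963, 894 and 768 on BN arrays 1 to 5 and 842, 655, 644, 480.4 and 576 on LOU arrays 1 to 5. Only LOU array 1 reached into the BN range, and the difference was 0.84 (standard error 0.26, limma adjusted p = 0.194). Ndufab1, the mitochondrial acyl carrier protein, which is also a subunit, read 1442, 1987, 1121, 1241 and 734 in BN and 1522, 730.4, 606, 559.8 and 674 in LOU, a difference of 0.71 (standard error 0.32, limma adjusted p = 0.388). LOU array 1 was about level with BN array 1 for this gene. The other LOU arrays lay below every BN array, but LOU array 2 (730.4) and BN array 5 (734) were almost equal. Ndufv3, an accessory subunit of the NADH-binding arm, differed by 0.57 with its brighter probe set and by 0.32 with the other.

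The 6 core subunits, among them those that carry the flavin and iron-sulfur centres, had a median difference of 0.33, and the 28 accessory subunits 0.35. Among the core, Ndufs1, the largest iron-sulfur subunit, read 785, 829.5, 527, 736 and 339 in BN and 934, 519, 361, 315 and 504 in LOU. Its highest value was on LOU array 1 and its lowest on LOU array 4, and the difference was 0.33 (standard error 0.34, limma adjusted p = 0.717). Ndufv1, which binds NADH and the flavin, read 1380.5, 1796, 723, 893 and 552 in BN and 1384, 839, 614, 538 and 792 in LOU; its difference was 0.31 (standard error 0.36, limma adjusted p = 0.752). With 1 array left out in turn the difference for Ndufv1 was 0.088 to 0.51, lowest without BN array 2 and highest without BN array 5 or without LOU array 1. The arrays of both strains interleaved for this gene too. Ndufb2, an accessory subunit singled out after its values were seen, read 1669, 1846, 1643, 1535 and 1418 in BN and 1522, 1019.7, 1125, 1012 and 1094 in LOU, a difference of 0.50 (standard error 0.14, limma adjusted p = 0.165), and again only LOU array 1 reached the BN range.

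**Figure D3:**
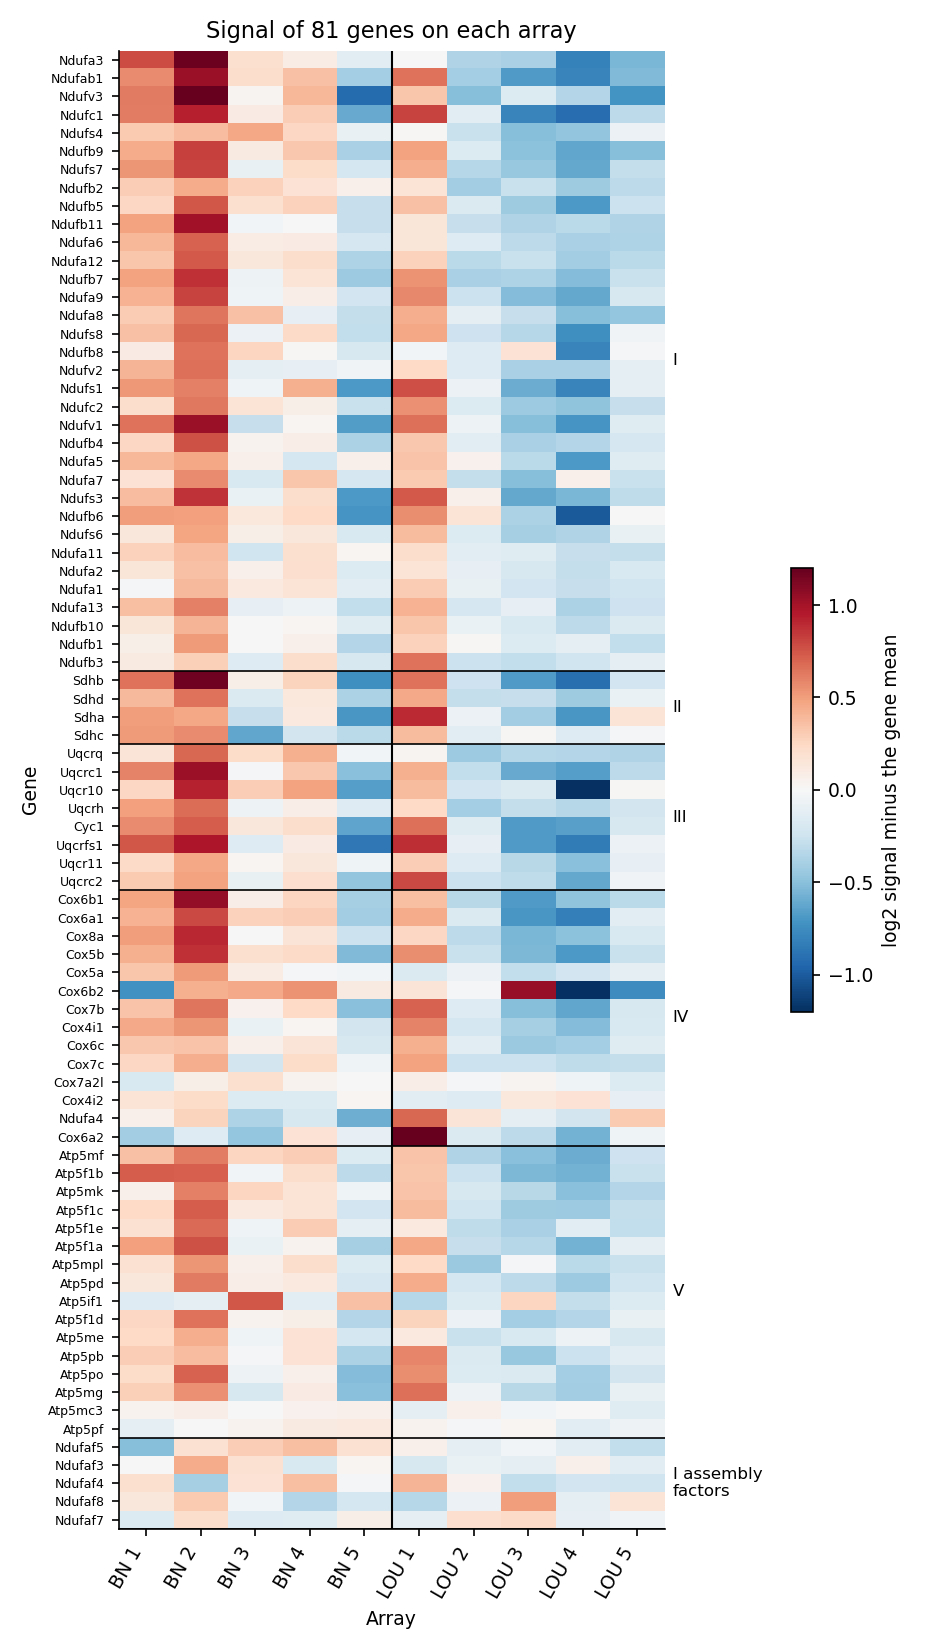
Log2 signal minus the gene's mean over the 10 arrays (colour) for the 81 genes of complexes I to V and of complex I assembly (rows, ordered within each complex by the strain difference) on the 5 BN and 5 LOU arrays (columns). BN 2 and LOU 1 are red and LOU 4 blue in most rows, while Atp5mc3, Atp5pf and Cox7a2l are pale on all arrays and Ndufa4 is blue on BN 3 and BN 5.

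Complex II is the only one that also works in the citrate cycle, and all its subunits are nuclear. Of its 4 genes 3 were above 0, with a median of 0.14, and whether these genes differed from each other was not tested. With 1 array left out in turn the median was 0.024 to 0.33, lowest without BN array 2 and highest without LOU array 1, and 2 to 4 genes were above 0. Sdha, the flavin subunit, read 1903, 1854, 1112, 1460.5 and 829.8 in BN and 2502, 1279, 1005, 828 and 1509.9 in LOU. LOU array 1 was the highest of all 10, the strains lay across each other, and the difference was 0.048 (standard error 0.33, limma adjusted p = 0.966); its sign turned with quantile normalization and with some arrays left out. Sdhb, the iron-sulfur subunit, read 2549.5, 3649, 1705, 1956 and 974 in BN and 2557, 1369, 1014, 868 and 1389 in LOU, a difference of 0.56 (standard error 0.38, limma adjusted p = 0.567). BN array 2 was highest and LOU array 4 lowest for this gene. The membrane anchors Sdhc and Sdhd differed by -0.040 and 0.24, and the sign for Sdhc also turned with the scaling and with the arrays used.

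Complex III had all 8 genes above 0, from 0.17 to 0.58, and the highest median of the complexes at 0.41. In it 1 gene was higher at an unadjusted p under 0.05, where 5.16% of all probe sets were. That gene was Uqcrq, a small subunit, which read 3029, 4404, 3180.1, 3662 and 2665 in BN and 2792, 2017, 2144, 2139 and 2119 in LOU. All LOU arrays but array 1 lay below every BN array, and the difference was 0.58 (standard error 0.16, limma adjusted p = 0.153). Uqcrc1, a core protein of the matrix side, read 2389, 3223, 1563, 1975 and 1116 in BN and 2125, 1288, 1037, 1000.3 and 1272 in LOU, a difference of 0.58 (standard error 0.30, limma adjusted p = 0.454), with BN array 5 down among the LOU arrays. Cyc1, cytochrome c1, read 2724, 3043, 2017, 2136 and 1189 in BN and 2914, 1663, 1152, 1169 and 1606 in LOU and differed by 0.40 (standard error 0.31, limma adjusted p = 0.623). Its highest values were on BN array 2 and LOU array 1. Uqcrfs1, the Rieske iron-sulfur protein, read 1908, 2229, 1019.9, 1220.5 and 629 in BN and 2105, 1059.8, 711, 634 and 1084 in LOU. It had the largest spread within strains of the members above background on all 10 arrays (SD 0.71 on the log2 scale), and its difference was 0.32 (standard error 0.41, limma adjusted p = 0.774). With 1 array left out in turn the difference for Uqcrfs1 was 0.12 to 0.58, lowest without BN array 2 and highest without LOU array 1. Uqcr10, another small subunit, differed by 0.52.

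Complex IV, cytochrome c oxidase, had 12 of 14 genes above 0 and a median of 0.30. The 10 subunits found in most tissues had a median of 0.33, and the 3 isoforms limited to some tissues (Cox4i2, Cox6a2 and Cox6b2) 0.031. Cox4i1, the common form of the regulatory subunit 4, read 6828, 7199, 4702, 5072 and 4260.3 in BN and 7511, 4306, 3773, 3463 and 4396 in LOU. The highest array was LOU array 1, and the strain means of 5612 ± 1318 and 4690.0 ± 1623 (SD, n = 5) differed by 0.29 (standard error 0.24, limma adjusted p = 0.645). Cox5a, a subunit of the matrix side, was the only member with every BN array above every LOU array: it read 190.3, 216, 161, 149 and 148 in BN and 134, 144, 123, 129 and 139 in LOU. The closest pair, BN array 5 and LOU array 2, were near each other, and the difference was 0.35 (standard error 0.13, limma adjusted p = 0.295). Cox6b1, Cox6a1 and Cox8a, small subunits around the core, differed by 0.59, 0.55 and 0.52.

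Ndufa4, first counted with complex I and now known as a complex IV subunit, ran against the others. It read 1629, 1878, 1204, 1365 and 1036 in BN and 2516, 1736, 1433, 1336 and 1930.4 in LOU, with strain means of 1423 ± 336 and 1790.1 ± 469.9 (SD, n = 5). The highest values were on LOU arrays 1 and 5 and the lowest on BN array 5, the strains overlapped, and the difference was -0.33 (standard error 0.22, limma adjusted p = 0.565). Set against the mean over all 83 members on the same array, it was -0.19, -0.30, -0.40, -0.32 and -0.33 on BN arrays and 0.32, 0.33, 0.16, 0.23 and 0.49 on LOU arrays (log2). On that relative scale all BN arrays lay below 0 and all LOU arrays above, which held for 1 of the 83 genes in this direction, while Ndufa3 and Atp5mf lay above in BN without overlap and the other 80 overlapped. The share of all named genes without overlap on this scale was not computed, so these counts have nothing to be set against. Ndufa4 was chosen here by its measured difference, and the relative values carry no test.

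Among the remaining forms, Cox4i2, the subunit 4 isoform known from lung, read 257, 268, 205, 205 and 233 in BN and 209, 207, 251, 259.6 and 214 in LOU, a difference of 0.031 (standard error 0.13, limma adjusted p = 0.944), and its sign turned with the arrays left out. It did not follow the array pattern of Cox4i1: LOU array 1 was among its lower LOU values and LOU array 4 its highest. Cox7a2l, which takes part in joining complexes into supercomplexes, was nearly flat, from 1052 to 1369 in BN and from 1066 to 1261 in LOU. The heart and muscle form Cox6a2 and the testis form Cox6b2 were above background on 0 BN arrays and 1 LOU array each, so their differences (-0.39 and 0.32) are of signals not above background; on LOU array 1 Cox6a2 read 42.1 against at most 11.3 elsewhere.

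**Figure D4:**
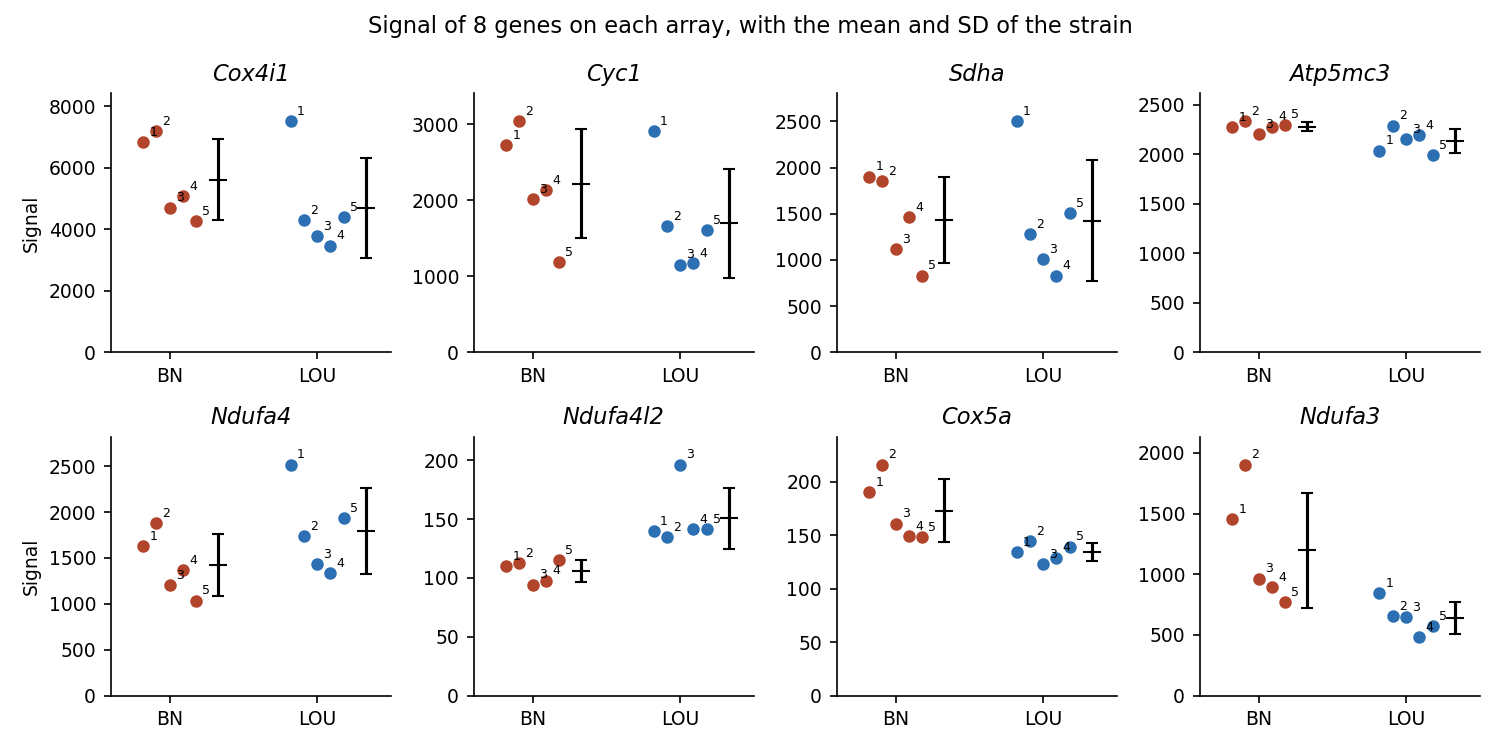
Signal (linear, y axis from 0) of 8 genes on each BN (red) and LOU (blue) array, numbered by array, with the strain mean and SD in black. Cox4i1 and Cyc1 have LOU 1 beside the highest BN arrays, and Sdha has LOU 1 above all BN arrays. Atp5mc3 is level on all arrays, Ndufa4 and Ndufa4l2 have higher LOU means, and Cox5a has all BN arrays above all LOU arrays.

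Complex V had all 16 genes above 0, from 0.058 to 0.54, with a median of 0.29. At an unadjusted p under 0.05, 2 of its genes were higher, where 5.16% of all probe sets were. The 5 subunits of F1, the part that makes ATP, had a median of 0.40, the 6 of the membrane part 0.28 and the 4 of the stalk that joins them 0.17. Atp5f1b, the catalytic beta subunit, read 9173, 9143, 5412, 6440.1 and 4460.4 in BN and 6982, 4632, 3819, 3743 and 4628 in LOU. BN arrays 1 and 2 were the highest, BN array 5 lay inside the LOU range, and the difference was 0.52 (standard error 0.25, limma adjusted p = 0.407). Atp5f1a, the alpha subunit, differed by 0.33 (limma adjusted p = 0.624) and Atp5mk, a small subunit of the membrane part, by 0.41. Atp5mf, subunit f of the membrane part, read 3040.0, 3654, 2854, 2924 and 2135 in BN and 3029, 1852, 1689, 1584 and 2015 in LOU, a difference of 0.54 (standard error 0.20, limma adjusted p = 0.287). The LOU arrays other than array 1 lay below every BN array for this gene.

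A pair of complex V genes, picked after their values were seen, stood still while the rest varied. Atp5mc3, a gene for the c ring through which protons pass, read 2270.5, 2332, 2205, 2276 and 2297 in BN and 2035, 2288, 2153, 2188 and 1987 in LOU. It had the smallest spread within strains of all members (SD 0.061 on the log2 scale), and its difference was 0.097 (standard error 0.096, limma adjusted p = 0.703). Atp5pf, a stalk subunit, was similar, with an SD of 0.084 and a difference of 0.058. Atp5if1, which inhibits the synthase when it would run backwards, read 239, 247, 447, 243 and 339 in BN and 209.6, 237, 318, 219 and 238 in LOU. Its highest value was on BN array 3 and its difference was 0.28 (standard error 0.20, limma adjusted p = 0.599). Its other probe sets gave -0.11 and 1.55, so they disagreed in sign, but they were above background on at most 1 of the 10 arrays.

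The 5 genes for factors that assemble complex I are not subunits, and they followed the array pattern little. Their level spanned 0.26 over the 10 arrays, against 1.19 for complex I itself, and the median ratio of BN array 2 to BN array 5 was 1.11-fold. Their strain differences ran from -0.071 (Ndufaf7) to 0.21 (Ndufaf5), with 3 of 5 above 0. Of the genes in no complex, Ndufa4l2, a relative of Ndufa4 known to be induced by low oxygen, was the only member with every BN array below every LOU array. It read 109.9, 113, 94.3, 97.6 and 115 in BN and 139.5, 134, 196, 142 and 141 in LOU, with LOU array 3 well above the rest, and the difference was -0.50 (standard error 0.14, limma adjusted p = 0.154). Cox6c-ps1, a pseudogene of Cox6c, was below background on 1 array and differed by -0.66 (standard error 0.44, limma adjusted p = 0.567); its signal cannot be told apart from those of similar transcripts.

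**Figure D5:**
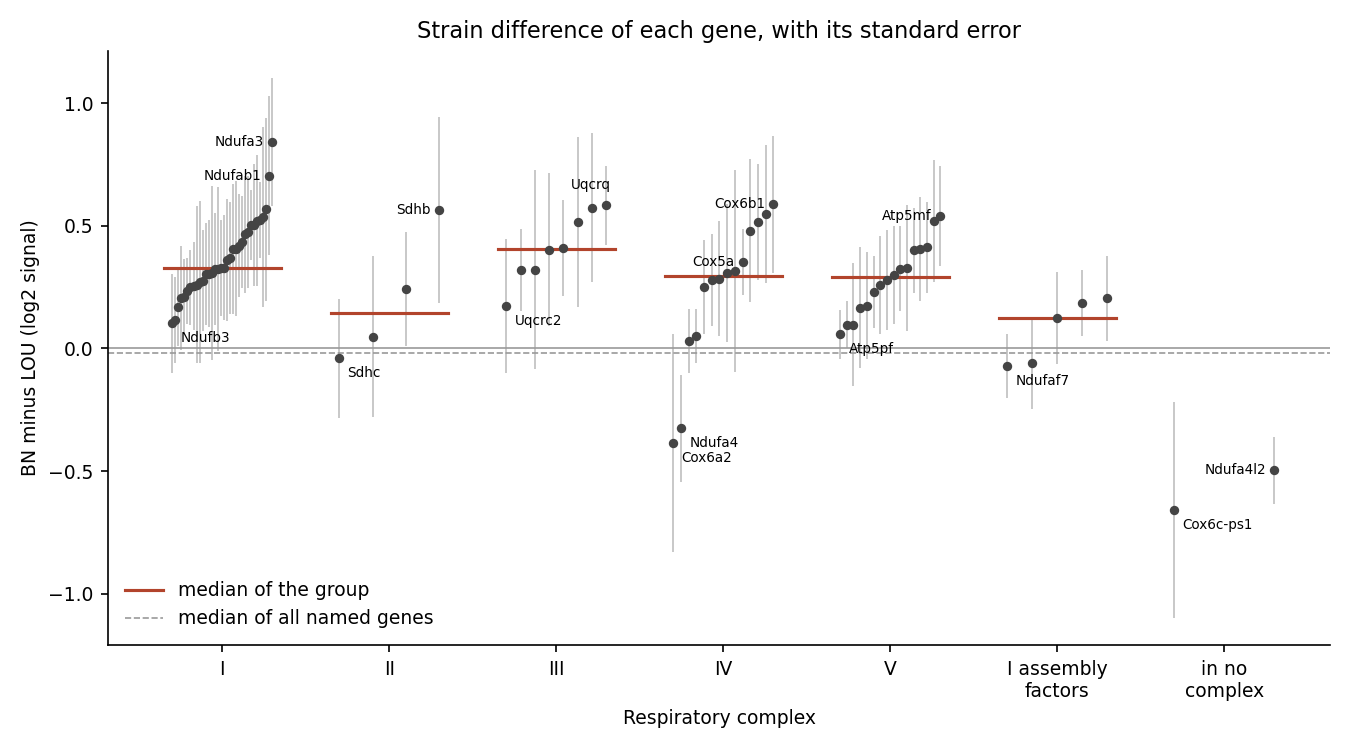
BN minus LOU difference in log2 signal (y axis) of each of the 83 genes with its standard error (grey bars), grouped by complex (x axis) and ordered within it; red lines are group medians and the dashed line the median of all named genes. All genes of complexes I, III and V lie above 0, and Ndufa4, Cox6a2, Ndufa4l2 and Cox6c-ps1 are the lowest.

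The complexes were then set against each other within each array, by subtracting the mean over all 83 genes of that array from the level of the complex, so that a shift shared by all of them drops out. The strain difference that was left was 0.084 for complex I, -0.084 for complex II, 0.13 for complex III, -0.052 for complex IV and close to 0 for complex V. For complex III these relative levels were 0.17, 0.17, 0.019, 0.11 and -0.16 on BN arrays and 0.095, -0.080, -0.14, -0.21 and 0.023 on LOU arrays. For complex II they were 0.26, 0.14, -0.28, -0.058 and -0.28 on BN arrays and 0.23, -0.0067, -0.057, -0.099 and 0.15 on LOU arrays. In each of the 5 complexes the strains overlapped, and the difference exceeded the SD of the relative level within both strains for complex I (SD 0.064 in BN and 0.041 in LOU) and complex IV (0.051 and 0.042). For complex III it exceeded the SD in LOU (0.12) and not that in BN (0.14), and for complexes II and V it exceeded neither. For complex II the sign turned when BN array 3 and LOU array 1 were left out (0.020). The value of complex IV includes Cox6a2 and Cox6b2, which were not above background on most arrays. For its subunits found in most tissues alone, the difference was 0.041, of the opposite sign. That exceeded neither SD (0.067 in BN and 0.090 in LOU).

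The ratio between the extreme arrays of 1 strain varied with the kind of subunit. From BN array 5 to BN array 2 the median ratio was 3.01-fold for the redox subunits of complex III (Cyc1 and Uqcrfs1) and 2.89-fold for the catalytic subunits of complex II (Sdha and Sdhb). It was 2.23-fold for the core of complex I and 1.87-fold for its accessory subunits, and 2.01-fold for F1 against 1.59-fold for the membrane part of complex V. From LOU array 4 to LOU array 1 the median ratio was 2.98-fold for the catalytic subunits of complex II, 2.88-fold for the redox subunits of complex III and 2.36-fold for the core of complex I, and 1.68-fold for its accessory subunits. For complex V in LOU it was 1.76-fold for F1, 1.63-fold for the membrane part and 1.82-fold for the stalk, whose ratio in BN was 1.72-fold. The arrays were chosen by their extreme levels, so these ratios carry no test.

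The mitochondrial DNA encodes the catalytic subunits of complex IV, and COX1 and COX2 were on the array; both were picked after the annotation was seen. COX1 read 22219.9, 21564, 15993, 19038 and 21473 in BN and 15815, 14734, 15593, 19301 and 15904 in LOU, and COX2 read 21683, 19011, 15991, 19699 and 20693 in BN and 16848, 14362, 14713, 18633 and 14633 in LOU. Their differences were 0.30 (standard error 0.13, limma adjusted p = 0.372) and 0.29 (standard error 0.13, limma adjusted p = 0.366). Their order over the arrays was not that of the nuclear subunits: BN array 5, lowest in most of those, was among the higher BN values, and LOU array 4 was the highest LOU array.

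Genes that assemble the complexes, other than those above, were measured for 37 of 42 listed, and limma called 0 of them. Of these 25 were above 0, with a median of 0.11. At an unadjusted p under 0.05, 5 were higher and 3 lower in BN, where 5.16% and 8.09% of all probe sets were. Pet100, which helps to build complex IV, read 178, 205, 162, 164 and 138 in BN and 324, 249, 234, 249 and 307 in LOU. Every BN array lay below every LOU array, as for 2.77% of all probe sets, and the difference was -0.68 (standard error 0.15, limma adjusted p = 0.0741). Acad9, a complex I assembly factor, was also lower on every BN array, from 169 to 210.2 in BN and from 230.1 to 265 in LOU, a difference of -0.35 (standard error 0.11, limma adjusted p = 0.184). Foxred1, another complex I factor, differed by 0.68 and Higd1a, which binds complex IV, by 0.70 (limma adjusted p = 0.13 and 0.15). The 13 measured regulators of mitochondrial genes had 6 above 0 and a median of -0.045; limma called 0, and 0 were at an unadjusted p under 0.05. Tfam, which packs and transcribes mitochondrial DNA, differed by -0.17, and Ppargc1a, the coactivator PGC-1 alpha, was above background on 2 arrays only, BN arrays 1 and 2.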

How the data were processed

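Total RNA of abdominal aorta from 5 BN and 5 LOU samples was measured on Affymetrix arrays, per the labels' protocols. The authors deposited 1 table of signal intensity per probe set; the submitters' processing notes name RMA, but the deposited intensity values are linear, from 0 to 22219.9, with each array's trimmed mean near 200.05, so how they were scaled is not known here. Arrays have no read depth, and their number limits the precision. No other alignment or annotation step is given in the sources used here.

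From the 15923 probe sets, 57 control probe sets were left out. GEO's platform annotation gave 1 symbol to 12783 probe sets, several to 312 and none to 2771; symbols were updated to RefSeq through the gene ID. Signals were taken to log2, with 4 values of 0 set to 0.1, and BN was compared with LOU by limma 3.58.1 (lmFit and eBayes, R 4.3.3, two-sided) over 15866 probe sets; p-values were adjusted by Benjamini-Hochberg, and an adjusted p under 0.05 was called. The brightest probe set stood for a gene; 4 member genes had several. The test was checked on simulated data. No 2 arrays held identical values. Genes were named by rule: Cox4i1, Sdha and Uqcrc1, members past the threshold or without overlap, the highest 3 and lowest 2 differences of each complex, complex II, redox and F1 subunits, isoforms, and members whose probe sets disagree. The members, the lists and the choice of arrays to leave out were made with earlier results of these data known, and genes were assigned to complexes after the annotation was seen. Alternatives were scaling (median centring, quantile), filter, floor, pseudocount, variance trend, array weights, replicate block, probe set rule, symbols, complex of Ndufa4, and arrays left out. Python 3.11.15 drew the figures.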

Additional observations from a re-analysis of the deposited data

Results flagged for a closer look

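Of 76 groups of 5 values tested (each strain's levels of the complexes and its signals of the named genes), 12 held an array whose gap to the nearest other array, set against the range of the strain, exceeded Dixon's 95% critical value. Chance flags about 1 group in 20. In 10 of the 12 the array was LOU array 1, at the top of its strain. Its level for complex V was 0.277 (log2). Its signals were 7511.4 for Cox4i1, 6982.0 for Atp5f1b, 2913.9 for Cyc1, 2791.7 for Uqcrq and 2124.7 for Uqcrc1. They were 1788.7 for Sdhc, 1784.4 for Cox6b1, 1521.9 for Ndufab1 and 42.1 for Cox6a2. The other two were on LOU array 3, with 196.1 for Ndufa4l2 and 317.7 for Atp5if1. These genes were read on the same array, so the flags on LOU array 1 are not separate events. The cause was not tested.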

How the results depend on the processing

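The median difference of the members and of complexes I to V stayed above 0 in all 24 alternatives run, and no member was called by limma in any of them. Not all of these could move a difference: the variance trend and the replicate block change only its error. Symbols as listed gave 88 member probe sets as well. With 1 array left out in turn, the median was 0.21 to 0.43 for all members, 0.22 to 0.52 for complex I, 0.024 to 0.33 for complex II, 0.28 to 0.60 for complex III, 0.20 to 0.41 for complex IV and 0.18 to 0.39 for complex V. Counts over all probe sets moved more: from 39 higher and 86 lower in BN to 60 higher with a floor of 32, to 60 and 144 with a pseudocount of 16, to 81 and 161 with a variance trend, and to 78 and 175 without the dimmest 40% of probe sets. Without BN array 3 and LOU array 1 there were 16 higher, and without BN arrays 1 and 2 and LOU array 1 (chosen after seeing the data) 19 higher and 32 lower. With 1 array left out there were 17 to 36 higher and 45 to 91 lower; fewer arrays were tested there, and the cause was otherwise not tested. Member genes with no overlap between strains numbered 2 with all arrays, 2 to 16 with 1 array left out, 17 without BN array 3 and LOU array 1, 19 without BN arrays 1 and 2 and LOU array 1, and 1 among subunits alone, where Ndufa4l2 is left out by construction. The strain difference of complex IV relative to all members was -0.0006 without BN arrays 1 and 2 and LOU array 1, against -0.052.

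Of the 31 named genes, 5 changed sign, and the cause was not tested. Sdha was -0.0068 with quantile normalization, -0.0277 without BN arrays 1 and 2 and LOU array 1, and -0.12 to 0.28 with 1 array left out. Sdhc was 0.011 with median centring, 0.20 without BN array 3 and LOU array 1, and -0.19 to 0.11 with 1 array left out. Cox4i2 was -0.12 without BN arrays 1 and 2 and LOU array 1, and -0.021 to 0.080 with 1 array left out. Cox6a2, not above background on 9 arrays, was 0.1481 and 0.1458 without those same sets of arrays, and -0.58 to 0.081 with 1 array left out. Cox6b2 was -0.051 with a floor of 32. In all, 1265 of 1314 values kept their direction and their side of the threshold, or moved less than their spread. Differences under the variance trend and the replicate block are counted among them, although those settings cannot move a difference.

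Array numbers run from 1 to 5 in both strains. They share only a number: same-numbered arrays had correlations of their deviations from -0.045 to 0.015, and 0 BN arrays correlated best with the LOU array of their own number. With the replicate number as a block, limma called 10 probe sets higher and 13 lower in BN, and 0 members. Identity between isoform proteins was not run, since no protein sequences were used here. The number of arrays, 5 a strain, limits precision, and signals under the background of 21.2 to 49.2 carry little information.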

Other observations

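Enzymes that feed the respiratory chain followed much the same array order as its subunits. Of 18 listed genes of the citrate cycle and of pyruvate dehydrogenase, which brings pyruvate into the cycle, 15 were measured, 13 had a BN minus LOU difference above 0 and the median was 0.33 (log2); limma called 0, and 0 were at an unadjusted p under 0.05. Their mean centred log2 level was 0.51, 0.71, -0.068, 0.22 and -0.58 on BN arrays 1 to 5 and 0.68, -0.19, -0.53, -0.73 and -0.025 on LOU arrays 1 to 5, with BN array 2 and LOU array 1 again the highest and LOU array 4 the lowest. Pdhb, a subunit of pyruvate dehydrogenase, had the largest difference of the list at 0.83 (standard error 0.46, limma adjusted p = 0.481). Idh2, the NADP-dependent isocitrate dehydrogenase, had the lowest at -0.23 (standard error 0.14, limma adjusted p = 0.51). The lists of this paragraph and the next were not compared with the subunits by a test.

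Genes for protein import and inner membrane shape had 20 of 21 measured members above 0 with a median of 0.18, and mitochondrial ribosomal proteins 56 of 71 with a median of 0.14. Exchange of nucleotides and phosphate across the inner membrane had 7 of 8 above 0 with a median of 0.13, and coenzyme Q synthesis 6 of 11 with a median of 0.040. Cytosolic ribosomal proteins, which are not mitochondrial, had 16 of 44 above 0 with a median of -0.057. limma called 0 genes in each of these lists. At an unadjusted p under 0.05 there were 2 in import, 5 in the mitochondrial ribosome, 1 in exchange, 0 in coenzyme Q synthesis and 0 in the cytosolic ribosome, each of them higher in BN. Over all probe sets 5.16% were higher in BN at that level and 8.09% lower. Among markers of other cells, striated muscle genes had a median of -0.060 (9 of 22 above 0; at an unadjusted p under 0.05, 3 higher in BN and 1 lower) and endothelial genes -0.062 (3 of 8). Of the striated muscle genes, Mb (myoglobin), named after its values were seen, was higher on every BN array than on any LOU array, with a difference of 3.73 (standard error 0.75, limma adjusted p = 0.0588); it was above background on 7 of the 10 arrays. Schwann cell and nerve genes had a median of 0.97 (10 of 10 above 0, 1 called higher), and macrophage genes -0.27 (0 of 7 above 0). The mean centred level of the Schwann cell and nerve genes was 2.69 on BN array 3 and -0.20 to 0.27 on the other BN arrays. Without BN array 3 their median difference was 0.18, with 8 of 10 above 0 and 0 called by limma (2 at an unadjusted p under 0.05). The level of the macrophage genes was 0.98 on LOU array 1 and -0.19 to 0.065 on the other LOU arrays. Without LOU array 1 their median difference was -0.16, with 2 of 7 above 0. These leave-out values were added after seeing the data.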
